A study of Canis lupus familiaris with 8 samples.

Results

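The genes WNT5A, CTNNB1 and TCF4, grouped under Wnt signalling, were followed across a canine mammary carcinoma line, its drug-resistant subline and the stem-like cells sorted from each. The members were every non-control probe whose listed transcript belongs to 1 of these 3 genes, whatever its signal. The rule gave 7 probes for 3 of the 1458 genes that could be named on the array, and all 7 passed the filter on dim probes. WNT5A had 1 probe (A_11_P0000028776). CTNNB1 had 4 probes, called here CTNNB1-a (A_11_P000002090), CTNNB1-b (A_11_P071281), CTNNB1-c (A_11_P071276) and CTNNB1-d (A_11_P195993), all listed against the same transcript. TCF4 had 2 probes, called TCF4-a (A_11_P050656) and TCF4-b (A_11_P110311), also against 1 transcript.

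Wnt proteins are secreted ligands that bind Frizzled receptors. In the canonical branch, beta-catenin, the product of CTNNB1, escapes a destruction complex, enters the nucleus and acts with TCF and LEF factors on target genes. A separate pool of beta-catenin ties cadherins to the actin skeleton at cell junctions. WNT5A is the best known ligand of the non-canonical branches, which run through small GTPases and calcium, and in the mammary gland it has been described both as a brake on epithelial growth and as a driver of cell movement. The symbol TCF4 needs care. Here it names the E-protein E2-2 (also ITF2), a basic helix-loop-helix factor, and not TCF7L2, the beta-catenin partner that is often written as TCF-4 in the Wnt literature. TCF7L2 had no named probe and is not analysed here. The E-protein gene has itself been described as a target of beta-catenin.

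The parental line was CMT-Stylo, from a canine mammary adenocarcinoma, labelled non treated. CMT-Star was grown out of it under stepwise doxorubicin, a DNA-damaging anthracycline, to resistance at 100 nM, and its samples are labelled doxorubicin treated. The labels do not say whether the drug was present at harvest. From each line, cells that were CD44+, CD24-/low and ALDH+ were collected by flow cytometry as cancer stem cells (CSC). This made 4 groups (the parent and the CSC of each line, written Stylo parent, Star CSC and so on) of 2 Cy3-labelled 1-colour arrays each, and all cells were cultured in DMEM with 10% FBS. The labels are silent on whether the 2 replicates of a group were grown apart. The p-values therefore speak only for array-to-array spread, and that may be technical. CMT-Star is 1 resistant subline, and its arrays shared a slide that held no Stylo array, so line, drug history and slide cannot be told apart.

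Levels are log2 of the processed signal minus the array's 75th percentile. A probe was called when limma's Benjamini-Hochberg adjusted p over the 26825 tested probes was under 0.05 and the change was at least 2-fold. The arrays differed in overall shape. The 75th percentile of the processed signal was 69.2 to 88.3 on the Stylo parent arrays and 296 to 536 on the other 6. The brightest 100 spots held 32.4% to 33.7% of the signal on Stylo parent arrays and 12.7% to 22.7% elsewhere. Each result was therefore also computed under 8 ways of background correction and scaling, the reported one included. Between Star parent and Stylo parent these moved the median of all tested probes from -0.83 to 1.97 on the log2 scale. Values relative to that median are given where the choice matters. They are the same, or nearly so, with no scaling and with any scaling that subtracts 1 constant per array. Those are the 75th percentile of all or of detected probes, the median and the spike-in scaling. Of the 8, only quantile normalization, cyclic loess and the normexp background correction can move them further. As to cell identity, vimentin, decorin, THY1, PDGFRB, COL1A1 and COL1A2, the 6 mesenchymal markers with named probes, were above background on all 8 arrays. Of the 5 luminal markers named, 1 to 4 were above background on an array. CDH1 was not above background on the Stylo parent arrays, and KRT19 was above background on 3 arrays of Star only.

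WNT5A was the member that changed most: it was high in both Stylo groups, low in Star parent and lowest in Star CSC. Its processed signal was 895 and 1155 on the Stylo parent arrays and 2022 and 2998 on the Stylo CSC arrays. On the Star arrays it was 259 and 175 in the parent and 119 and 60.5 in the CSC. The raw signals of the Star arrays all lay below those of the Stylo arrays, although every Star array had a higher 75th percentile than every Stylo array. All 8 values were well above background. Ranked among the probes of its own array, which needs no scaling, WNT5A stood at percentile 91.6 and 93.7 in Stylo parent and at 90.1 and 92.6 in Stylo CSC. It stood at percentile 71.4 and 68.7 in Star parent and at 60.9 and 55.9 in Star CSC.

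**Figure D1:**
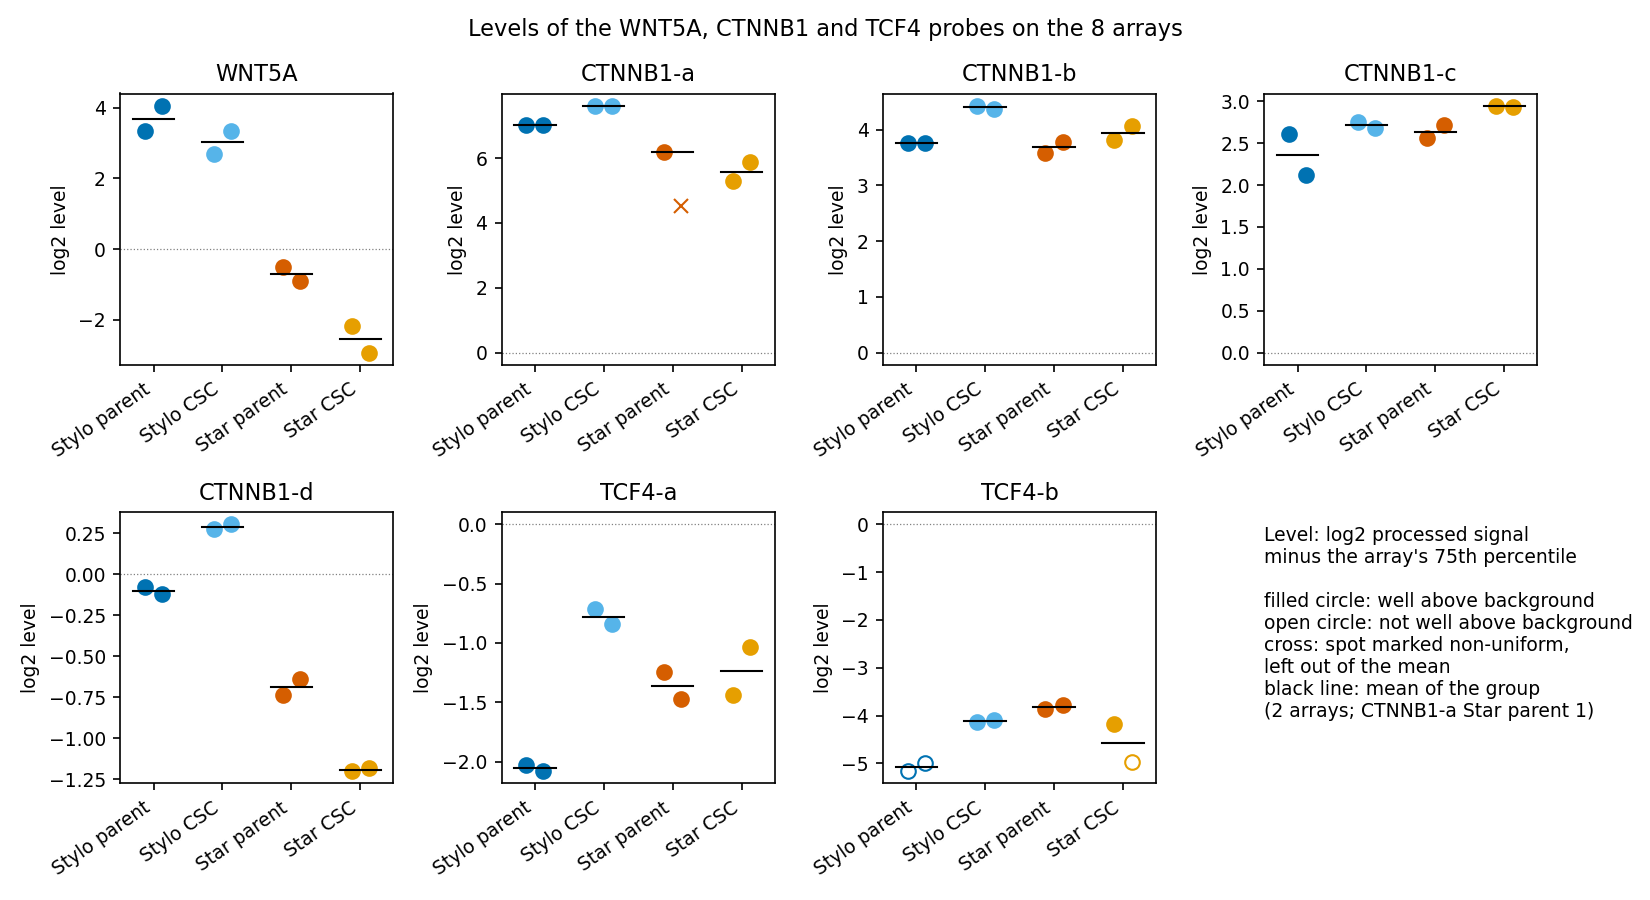
Level of each of the 7 probes on each array, in 1 panel per probe with its own log2 axis (log2 processed signal minus the array's 75th percentile) and the 4 groups along the x axis. Points are arrays, open circles are values not well above background, the cross is a spot left out of the mean, and the black line is the group mean. WNT5A runs from 4.06 down to -2.94, while CTNNB1-b and CTNNB1-c stay within a narrow band.

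On the scaled log2 level, WNT5A was 3.70 ± 0.51 in Stylo parent, 3.02 ± 0.45 in Stylo CSC, -0.72 ± 0.28 in Star parent and -2.55 ± 0.54 in Star CSC (mean ± SD, n = 2 arrays each). In Star parent against Stylo parent it was 21.4-fold lower, a log2 difference of -4.42 ± 0.38 (SE; 95% interval -5.37 to -3.47; limma adjusted p = 0.000104). Only 257 of the tested probes had a more negative difference. In that comparison 56.5% of all tested probes were called, so a call alone sets nothing apart. The members called there were WNT5A and TCF4-b, and the latter has no usable fold, as described further on.

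Between the sorted cells of the lines the gap was wider still. WNT5A was 47.8-fold lower in Star CSC than in Stylo CSC (log2 difference -5.58 ± 0.38, SE; 95% interval -6.52 to -4.63; limma adjusted p = 0.000156), and 32 tested probes fell further. Here 29.4% of tested probes were called, and of the member probes WNT5A, CTNNB1-a and CTNNB1-d were, all lower in Star CSC. Both line differences of WNT5A were called lower under all 8 scalings. Relative to the median probe, the difference lay between -4.50 and -1.91 for the parents and between -5.56 and -4.41 for the CSC, with the smaller size in both cases from the normexp background correction.

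Sorting went with a further fall of WNT5A in Star. Star CSC lay 3.57-fold below Star parent (log2 difference -1.84 ± 0.38, SE; 95% interval -2.78 to -0.89; limma adjusted p = 0.0187), with no overlap between the 2 groups' arrays. In this comparison 9.72% of tested probes were called, and WNT5A was the only one of the 7 member probes among them. The call was lost without Star parent replicate 1 (-1.63) or without Star CSC replicate 2 (-1.45). It was kept under 7 of the 8 scalings and lost with spike-in scaling (-0.46), which raised the median of all probes to 1.27. Relative to that median the change was -1.73, as it was under the reported scaling. Both scalings subtract 1 constant per array, so this value could not differ between them. Leukocyte markers moved in the same comparison. Of the 6 with named probes 3 were tested, of which 2 were called higher and none lower (median 2.20). CD86, a costimulatory surface protein, went from 21.8 and 21.8 in Star parent to 514 and 461 in Star CSC, and TYROBP, a signalling adaptor of myeloid and NK cells, was above background only in Star CSC (15.9 and 13.2). The summed leukocyte signal was 0.146 and 0.18 in Star parent and 1.05 and 1.11 in Star CSC, in multiples of the array's 75th percentile. CD86 made up most of that sum in Star CSC and nearly all of its rise. CD79A, the remaining tested marker, was not called. Its scaled log2 levels were -4.88 and -4.16 in Star parent and -4.86 and -4.49 in Star CSC. CD4 and MS4A1 were above background on no array. The part of these markers in the WNT5A result was not tested.

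In Stylo the sorted cells did not pass the test for WNT5A. The log2 difference between Stylo CSC and Stylo parent was -0.68 ± 0.38 (SE), with a 95% interval from -1.62 to 0.27 (limma adjusted p = 0.156). The lowest Stylo parent level and the highest Stylo CSC level were both 3.34. The background there was 54.0% of tested probes called, and TCF4-a was the only member probe called. The WNT5A direction was not stable: spike-in scaling gave 1.36 and called it higher, no scaling gave 1.28 and did so too, and normexp gave 0.61. The difference between the sorting effects of the 2 lines was -1.16 ± 0.54 (SE; limma adjusted p = 0.108) and did not pass, so the WNT5A response to sorting is not shown to differ between Star and Stylo. That difference was called lower with spike-in scaling, no scaling and normexp. Under the reported scaling the levels thus ran downward from Stylo parent through Stylo CSC and Star parent to Star CSC. The order of the 2 Stylo groups depends on that scaling. Of the neighbours in that order, the first pair did not pass the test and the last pair did, while the middle pair was not compared and did not overlap.

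**Figure D2:**
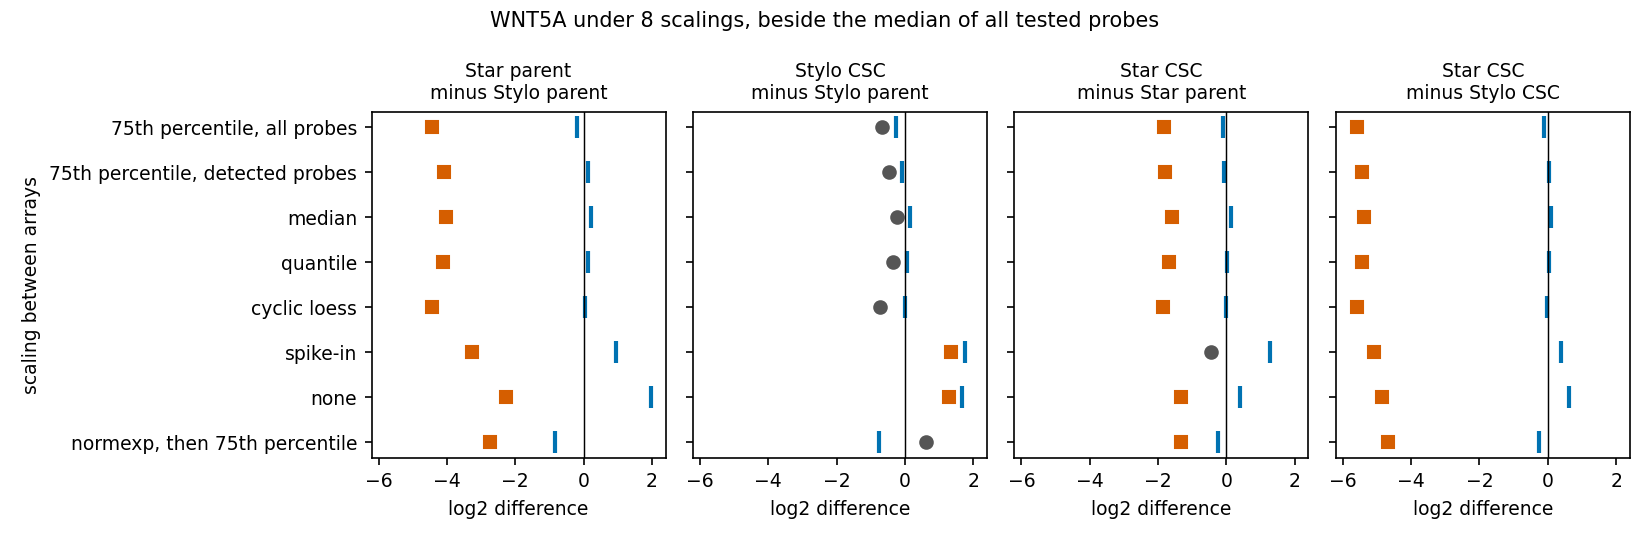
Log2 difference of WNT5A in 4 comparisons (1 panel each, x axis) under 8 scalings between arrays (y axis). Orange squares are calls, grey circles are not called, and blue ticks mark the median of all tested probes under the same scaling. WNT5A lies left of the blue tick in every setting for 3 of the comparisons, while between Stylo CSC and Stylo parent it lies close to the tick and, with normexp, right of it.

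Markers of mesenchymal cells also differed between the lines. Their summed signal, in multiples of the array's 75th percentile, was 664 and 739 in Stylo parent, 1291 and 1399 in Stylo CSC, 441 and 375 in Star parent and 293 and 318 in Star CSC. Vimentin and COL1A2 made up most of this sum. Of the 6 genes, 4 were called lower and 1 higher in Star parent than in Stylo parent. In Star CSC against Stylo CSC 5 were called lower. The higher one between the parents was COL1A2. Over all tested probes, 31.9% were called lower and 24.6% higher between the parents, and 16.9% lower between the CSC. Vimentin was called lower between the parents under 2 of the 8 scalings, and lay between -1.13 and 0.92 relative to the median probe. Between the CSC it was called lower under 6. Decorin, a collagen-binding proteoglycan, differed by -5.47 ± 0.10 and -7.00 ± 0.10 (log2, SE). Between Stylo CSC and Stylo parent 4 rose and 1 fell (21.9% and 32.1% of all tested probes), whereas WNT5A did not pass. The part of these cells or of this program in the WNT5A result was not tested. In bulk RNA, fewer cells that make a transcript and less of it per cell cannot be told apart.

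CTNNB1 was abundant in every group, and its 4 probes did not tell 1 story. All 4 were well above background on all 8 arrays. CTNNB1-a gave a processed signal of 11331 and 8904 in Stylo parent, 59795 and 57847 in Stylo CSC, 27042 in Star parent replicate 1 and 20932 and 27075 in Star CSC. Its spot on Star parent replicate 2 (7572) was marked non-uniform by the scanner software and was left out, so Star parent rests on 1 array for this probe. CTNNB1-b gave 1201 and 941 in Stylo parent, 6669 and 6153 in Stylo CSC, 4467 and 4529 in Star parent and 7574 and 7781 in Star CSC. These 2 probes were both brighter in Stylo CSC than in Stylo parent, but only CTNNB1-a was dimmer in Star CSC than in Stylo CSC before scaling.

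CTNNB1-c gave 537 and 302 in Stylo parent, 2089 and 1906 in Stylo CSC, 2188 and 2172 in Star parent and 4126 and 3549 in Star CSC. CTNNB1-d, the dimmest of the 4, gave 83.6 and 63.8 in Stylo parent, 375 and 366 in Stylo CSC, 223 and 213 in Star parent and 233 and 204 in Star CSC. Before scaling, CTNNB1-c was thus brightest in Star CSC, and CTNNB1-d, like CTNNB1-a, was brightest in Stylo CSC.

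The probes parted most clearly between the sorted cells. CTNNB1-a was 4.07-fold lower in Star CSC than in Stylo CSC (log2 difference -2.02 ± 0.21, SE; limma adjusted p = 0.00116) and CTNNB1-d was 2.79-fold lower (-1.48 ± 0.09; adjusted p = 0.000107). CTNNB1-b lay at -0.46 ± 0.12, below the 2-fold limit (adjusted p = 0.0219). CTNNB1-c lay at 0.22 ± 0.17, with a 95% interval from -0.20 to 0.64 (adjusted p = 0.307). CTNNB1-a was called lower under all 8 scalings and CTNNB1-d under 6, the calls of CTNNB1-d being lost with spike-in scaling (-0.98) and with no scaling (-0.76). CTNNB1-c was called under none of the 8. The sign of the CTNNB1 difference thus depends on the probe, and the files used here give no probe sequences by which the part of the transcript each one reads could be set beside this.

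Between the parents no CTNNB1 probe was called. The log2 differences of Star parent from Stylo parent were -0.82 ± 0.25 for CTNNB1-a, -0.08 ± 0.12 for CTNNB1-b, 0.27 ± 0.17 for CTNNB1-c and -0.59 ± 0.09 for CTNNB1-d (SE). With the marked spot kept, CTNNB1-a fell to -1.65 and was called. Quantile normalization turned CTNNB1-a to 0.70 and CTNNB1-b to 0.44, so no direction is given for the parents.

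In Stylo no CTNNB1 probe was called between the sorted cells and their parent under the reported scaling, and the calls depended on the scaling. The differences of Stylo CSC from Stylo parent were 0.60 ± 0.21 for CTNNB1-a (limma adjusted p = 0.0471), 0.64 ± 0.12 for CTNNB1-b (adjusted p = 0.004), 0.36 ± 0.17 for CTNNB1-c (adjusted p = 0.104) and 0.39 ± 0.09 for CTNNB1-d (adjusted p = 0.00823). All 4 were positive under all 8 scalings, also relative to the median probe, a value that scalings by 1 constant per array hardly change. CTNNB1-a was called higher under 6 of the 8, CTNNB1-b under 5, CTNNB1-c under 3 and CTNNB1-d under 2. In Star the corresponding differences were -0.61 ± 0.25, 0.26 ± 0.12, 0.30 ± 0.17 and -0.51 ± 0.09, of mixed sign and none called. The response to sorting differed between the lines for CTNNB1-a (-1.21 ± 0.33; limma adjusted p = 0.0251), a call in a contrast where 52.1% of tested probes were called and where TCF4-a and TCF4-b were called too. That call needs the marked spot left out: with it kept, the difference was -0.38. The call was also lost when any 1 of 5 arrays was left out in turn, namely either Stylo parent array, either Stylo CSC array or Star CSC replicate 1 (-0.92 to -1.21), and it could not be computed without Star parent replicate 1.

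**Figure D3:**
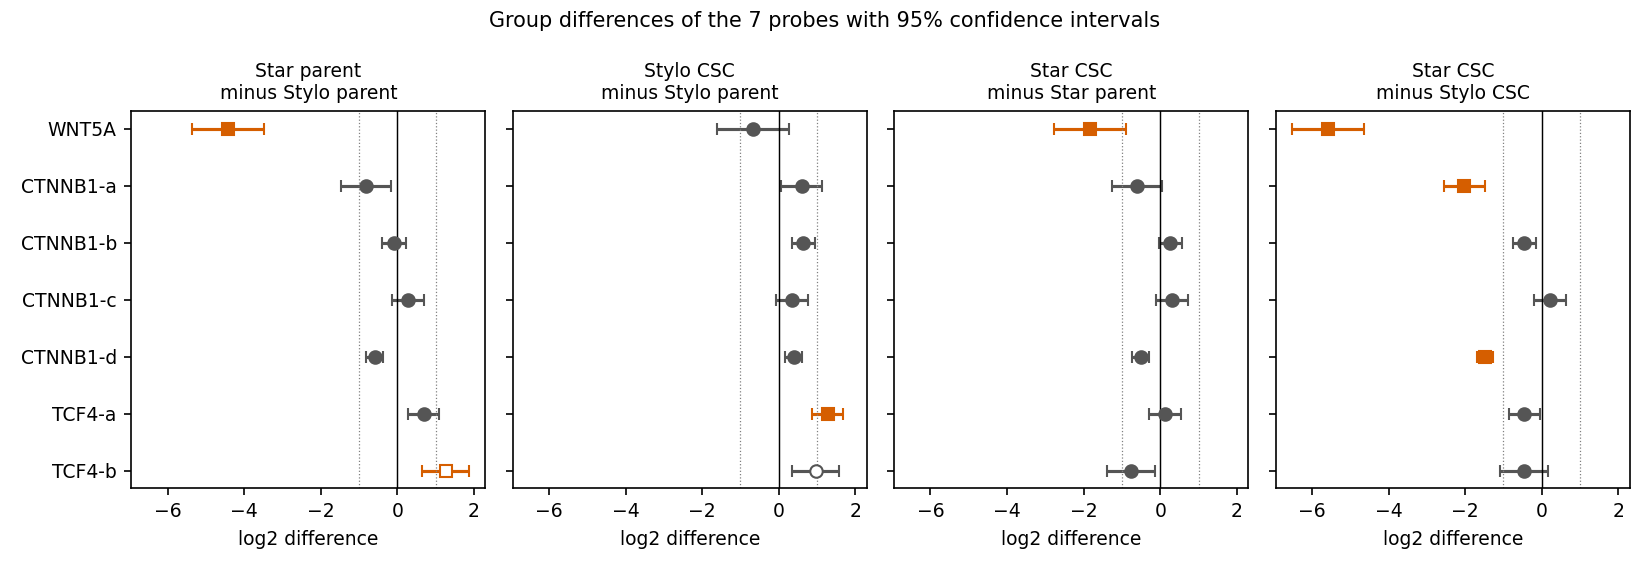
Log2 difference (x axis) of each of the 7 probes (y axis) in 4 comparisons, 1 panel each, with 95% confidence intervals from limma. Orange squares are calls, grey circles are not called, open symbols have 1 group not above background on either array, and dotted lines mark 2-fold. WNT5A is far to the left in 3 panels, and in the comparison of the sorted cells CTNNB1-a and CTNNB1-d lie apart from CTNNB1-b and CTNNB1-c.

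WNT5A and beta-catenin can be set against each other within an array, where any scaling constant cancels. The log2 ratio of WNT5A to CTNNB1-b has no meaning as a level, since the probes differ, but its change can be read. It was -0.42 and 0.30 in Stylo parent, -1.72 and -1.04 in Stylo CSC, -4.11 and -4.70 in Star parent and -5.99 and -7.01 in Star CSC. The 4 groups did not overlap, and the ratio fell in the same order as the WNT5A level under the reported scaling. The same order held against CTNNB1-c, where the ratio went from 1.94 on a Stylo parent array to -5.87 on a Star CSC array. Across arrays, the WNT5A level went with CTNNB1-d (Pearson r = 0.93, 8 arrays) and CTNNB1-a (r = 0.89, 7 arrays), and not with CTNNB1-b (r = 0.27) or, in sign, CTNNB1-c (r = -0.69). CTNNB1-a and CTNNB1-d went together (r = 0.98, 7 arrays). These points are 4 groups of arrays that share slides and overall signal shape, and they are given as a description.

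TCF4, the E-protein, was dim in Stylo parent and brighter in the other 3 groups. TCF4-a gave a processed signal of 21.7 and 16.4 in Stylo parent, 189 and 165 in Stylo CSC, 157 and 119 in Star parent and 198 and 227 in Star CSC, all well above background. The Stylo parent arrays were dim over all probes. After scaling the levels were -2.05 ± 0.04, -0.78 ± 0.09, -1.36 ± 0.17 and -1.23 ± 0.29 in the same order (mean ± SD, n = 2 arrays each), so Stylo CSC was highest and Stylo parent lowest. The 2 Star groups overlapped.

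TCF4-a rose 2.42-fold in Stylo CSC over Stylo parent (log2 difference 1.28 ± 0.16, SE; 95% interval 0.87 to 1.68; limma adjusted p = 0.000666). The call stood under 7 of the 8 scalings, and normexp turned the value to -0.15. Relative to the median probe the difference was positive under all 8 (0.61 to 1.55), where scalings by 1 constant per array share the value 1.55. In Star the sorted cells differed from their parent by 0.12 ± 0.16 (95% interval -0.28 to 0.53; limma adjusted p = 0.594). The sorting effect differed between the lines by -1.15 ± 0.23 (limma adjusted p = 0.00606), called lower under 7 of the 8 scalings but 0.13 with normexp, and below 2-fold without Star CSC replicate 1 (-0.95).

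Between the lines TCF4-a did not pass. Star parent lay at 0.69 ± 0.16 against Stylo parent (SE; limma adjusted p = 0.00902), under the 2-fold limit, and was called higher under 4 of the 8 scalings, among them the percentile of detected probes (1.02). Star CSC lay at -0.46 ± 0.16 against Stylo CSC (adjusted p = 0.0562). TCF4-b was near the detection limit. Its processed signal was 2.47 and 2.18 in Stylo parent, both values not well above background. It was 17.7 and 17.3 in Stylo CSC, 25.5 and 24.3 in Star parent, and 29.4 and 14.7 in Star CSC, the last again not above background. The other groups were too close to the lowest detectable signal of Stylo parent to set a lower limit, and its call between the parents is given without a fold. Star CSC differed from Star parent by -0.76 ± 0.25 (adjusted p = 0.0684) with this probe, against 0.12 with TCF4-a, and was called lower without Star CSC replicate 1 (-1.16). Stylo CSC against Stylo parent was called higher with TCF4-b under 6 of the 8 scalings, called lower with normexp (-1.74), and also called higher without Stylo parent replicate 2 (1.05). Normexp also turned the call of TCF4-b between the parents to lower (-1.59) and that of its difference in sorting effects to higher (1.13). ID3, a helix-loop-helix protein that lacks a DNA-binding region and holds E-proteins off DNA, was the only other gene of a 31-gene E-protein list that was tested. It rose with sorting in Stylo (1.43 ± 0.15; limma adjusted p = 0.0003; called under all 8 scalings), from 194 and 133 to 1624 and 1714 in processed signal, and lay at 0.99 ± 0.15 with sorting in Star, just under 2-fold and called higher under 5 of the 8 scalings. The difference between these 2 responses of ID3 was called under 1 of the 8.

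Few other genes of the pathway carry a name on this array, so the pathway around these members is seen in outline. Of 26 ligand and secretion genes, WNT5A was the only one tested, and RSPO1, a secreted enhancer of Wnt signalling, was not above background in any group. Of 21 receptor genes, FZD6, a Frizzled receptor, was the only one. FZD6 gave 179 and 126 in Stylo parent, 270 and 240 in Stylo CSC, 243 and 198 in Star parent and 316 and 242 in Star CSC. Relative to its array it fell in Star parent (-1.62 ± 0.12, SE; limma adjusted p = 5.1e-05) and in Stylo CSC (-1.19 ± 0.12; adjusted p = 0.00022) against Stylo parent. It lay at -0.18 between the Star groups. A second probe gave -1.19 and -1.14 for the first 2. The calls stood under 5 and 3 of the 8 scalings, and relative to the median probe the difference reached 0.07 and 0.18, so no direction is given across scalings.

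Of 14 secreted inhibitors only DKK3 was tested, a Dickkopf-family protein often silenced in tumours. It rose from 181 and 128 in Stylo parent to 1634 and 1376 in Star parent (1.14 ± 0.10; limma adjusted p = 0.0001; called under all 8 scalings), and its other probe gave 1.58. It was called in none of the other 3 comparisons (0.31, -0.60 and 0.23). Of 25 genes of the destruction complex and Dishevelled step only PPP2CA, a phosphatase catalytic subunit, was tested. It lay at -1.85 ± 0.10 in Star parent and -1.46 ± 0.10 in Stylo CSC against Stylo parent, called lower in both under 5 of the 8 scalings and between 0.33 and -1.82 and between 0.55 and -1.44 relative to the median probe. Of 31 nuclear factors and cofactors, CTNNB1 itself was the only one tested.

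The non-canonical arm, which WNT5A is known to drive, had 5 tested genes of 42. In Star parent against Stylo parent 3 rose and 1 fell, beside 201 higher and 383 lower of the 978 named genes tested. The list median was 1.31 and that of the named genes -0.50. PRKCD, a protein kinase C isoform, rose from 12.2 and 8.37 to 463 and 476 (3.38 ± 0.15; limma adjusted p = 9.7e-06). PPP3CA, the catalytic subunit of calcineurin, lay at 1.31 ± 0.17 and INVS, inversin, a switch between the Wnt branches, at 1.59 ± 0.18. These 3 were called higher under all 8 scalings. The small GTPase RAC1 lay at -1.71 ± 0.11, called lower under 5 scalings, and RHOA at -0.95 ± 0.12, not called.

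With sorting, PRKCD rose in Stylo (2.03 ± 0.15; limma adjusted p = 7.3e-05; 7 of 8 scalings) and lay at 0.01 ± 0.15 in Star. The remaining 4 genes of the list were not called with sorting in either line. Between the sorted cells PRKCD was higher in Star CSC (1.35 ± 0.15; adjusted p = 0.00087; all 8 scalings) and was the only one called. WNT5A itself was in the ligand list, so it does not enter these counts.

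**Figure D4:**
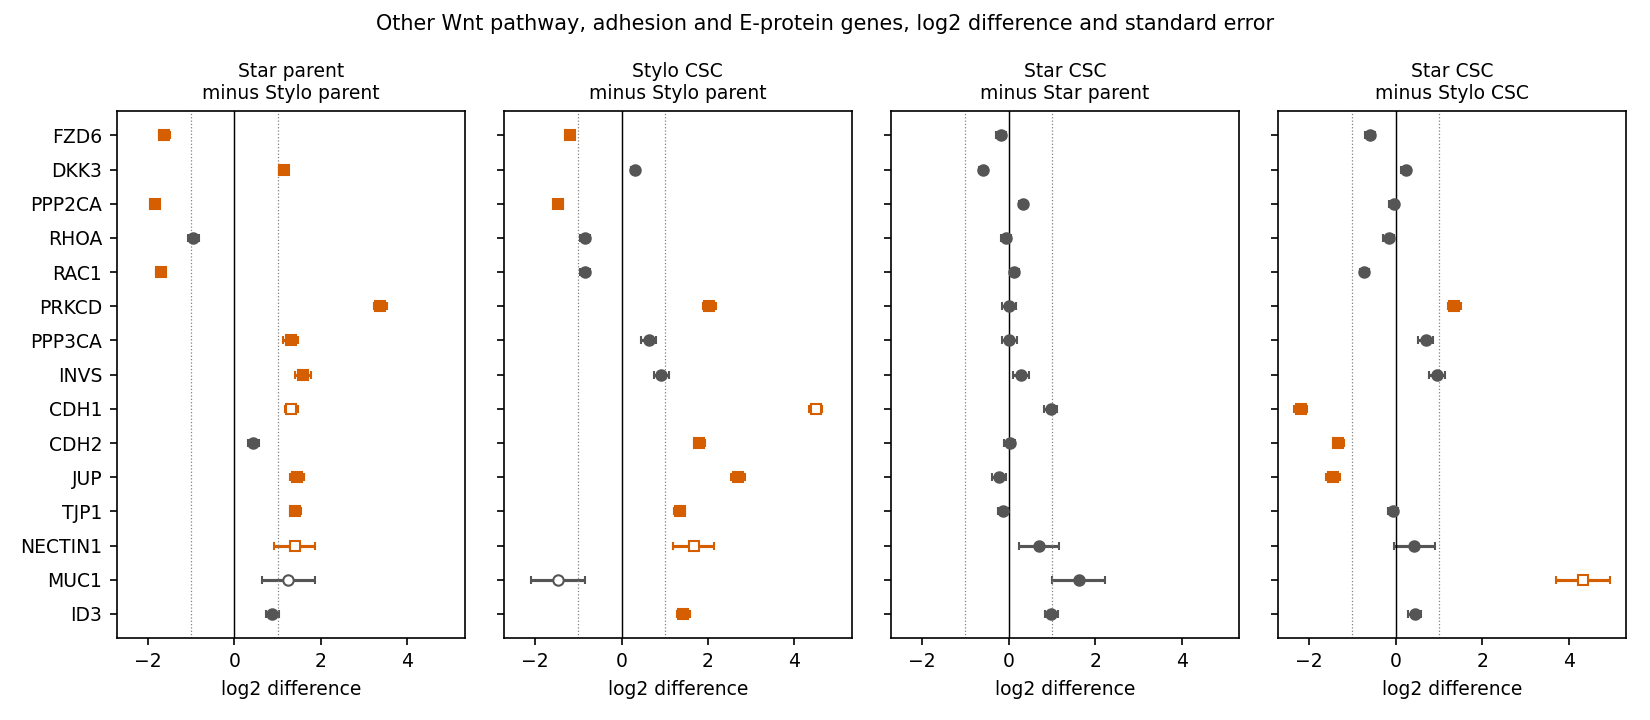
Log2 difference with its standard error (x axis) for 15 other tested genes of the Wnt, adhesion and E-protein lists (y axis) in 4 comparisons, 1 panel each. Orange squares are calls, grey circles are not called, open symbols have 1 group not above background on either array, and dotted lines mark 2-fold. The adhesion genes CDH1, CDH2 and JUP lie right of 0 for Stylo CSC against Stylo parent and left of 0 for Star CSC against Stylo CSC.

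Beta-catenin's partners at the junction come next. Of 35 adhesion genes 7 were tested, with CTNNB1-a standing for CTNNB1. In Stylo CSC against Stylo parent 5 of the 7 rose and none fell, beside 189 and 371 of 978 named genes. JUP, plakoglobin, a close relative of beta-catenin, went from 463 and 417 to 11309 and 10702 (2.69 ± 0.16; limma adjusted p = 3.2e-05). CDH2, N-cadherin, rose by 1.79 ± 0.12 and TJP1, a tight junction scaffold, by 1.34 ± 0.13. JUP, CDH2 and TJP1 were called higher under all 8 scalings. CDH1, E-cadherin, was not above background in Stylo parent and was at least 6.12-fold higher in Stylo CSC (called under 7 of the 8 scalings). NECTIN1, a junction protein also dark in Stylo parent, was at least 1.39-fold higher there, but normexp called it lower (-1.43) and the call was lost without Stylo parent replicate 1 (0.89) or Stylo CSC replicate 1 (1.51).

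Between the sorted cells the direction was the opposite for the cadherins. The Stylo CSC arrays enter this comparison and that with Stylo parent with opposite sign, so these results are not independent. In Star CSC against Stylo CSC 4 of the 7 fell and 1 rose, beside 218 and 154 of 978 named genes. CTNNB1 itself is among those that fell, as read by CTNNB1-a, while CTNNB1-b and CTNNB1-c were not called. CDH1 went from 191 and 208 to 69.9 and 73.1 (-2.20 ± 0.15; limma adjusted p = 0.00015), and CDH2 (-1.33 ± 0.12) and JUP (-1.46 ± 0.16) fell with it and with CTNNB1-a. CDH1 was called under all 8 scalings, and CDH2 and JUP under 6. The 2 other tested CDH2 probes gave -1.51 and -1.20. MUC1, a membrane mucin whose tail binds beta-catenin, lay below detection in Stylo CSC, and Star CSC stood at least 10.2-fold higher (called under 7 of 8 scalings). Its fitted value of 4.34 became 3.38 and 5.29 without either Stylo CSC array. With sorting in Star no adhesion gene was called under the reported scaling, but CDH1 lay just under 2-fold there and was called higher under 6 of the 8 scalings, and MUC1 and NECTIN1 under 2 each. In Star parent against Stylo parent 4 of the 7 were called higher and none lower, beside 201 and 383 of 978 named genes. Of these 4, JUP (1.45 ± 0.16) and TJP1 (1.41 ± 0.13) were above background in both groups.

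Genes described as targets of beta-catenin and TCF factors moved in both directions. Of 62 listed, 20 were tested, TCF4 among them. CD44 was used to sort the CSC, so its sorting difference is no finding. In Star parent against Stylo parent 5 rose and 7 fell, beside 201 and 383 of 978 named genes. The list median was 0.16 (named genes -0.50). In Stylo CSC against Stylo parent 2 rose and 5 fell (median 0.29, named genes -0.59, of which 189 rose and 371 fell). In Star CSC against Star parent 1 rose and 4 fell (median -0.38, named genes -0.10, of which 54 rose and 72 fell). In Star CSC against Stylo CSC 4 rose and 6 fell (median -0.36, named genes -0.19, of which 154 rose and 218 fell).

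MYC, the textbook target, was called in none of the 4 comparisons, with log2 differences of -0.34, -0.11, -0.13 and -0.36. CCND1, the G1 cyclin, went from 462 and 343 in Stylo parent to 15741 and 16256 in Star parent (3.17 ± 0.22; limma adjusted p = 3.9e-05). It was also higher in Star CSC than in Stylo CSC (2.14 ± 0.22; adjusted p = 0.00057), and both calls stood under all 8 scalings. BIRC5, survivin, went the other way, at -4.51 ± 0.44 between the parents and -2.19 ± 0.44 between the CSC, also under all 8. The 2 Star CSC arrays were far apart for BIRC5 (618 and 1474 in processed signal), and the difference between the CSC was -1.46 without replicate 1 and -2.92 without replicate 2. PROM1, the stem cell surface protein CD133, was the only target called higher in each of the 4 comparisons. Stylo parent was not above background, and against it Star parent was at least 12.7-fold and Stylo CSC at least 4.56-fold higher. It rose by 1.55 ± 0.39 with sorting in Star (391 and 590 to 2073 and 1932 in processed signal) and by 3.03 ± 0.39 between the CSC. The call for Star CSC against Star parent stood under all 8 scalings, but was lost when Star parent replicate 1 (1.17), a Star CSC array (1.497 and 1.60) or a Stylo CSC array (1.55) was left out. ABCB1, the efflux pump that exports doxorubicin, was higher in Star parent (2.52 ± 0.11) and in Star CSC (2.42 ± 0.11) than in the Stylo counterpart, under all 8 scalings. Under the reported scaling it also lay higher in the CSC than in the parent of each line, but was not called. With sorting it was called higher under 4 of the 8 scalings in Stylo and under 2 in Star.

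**Figure D5:**
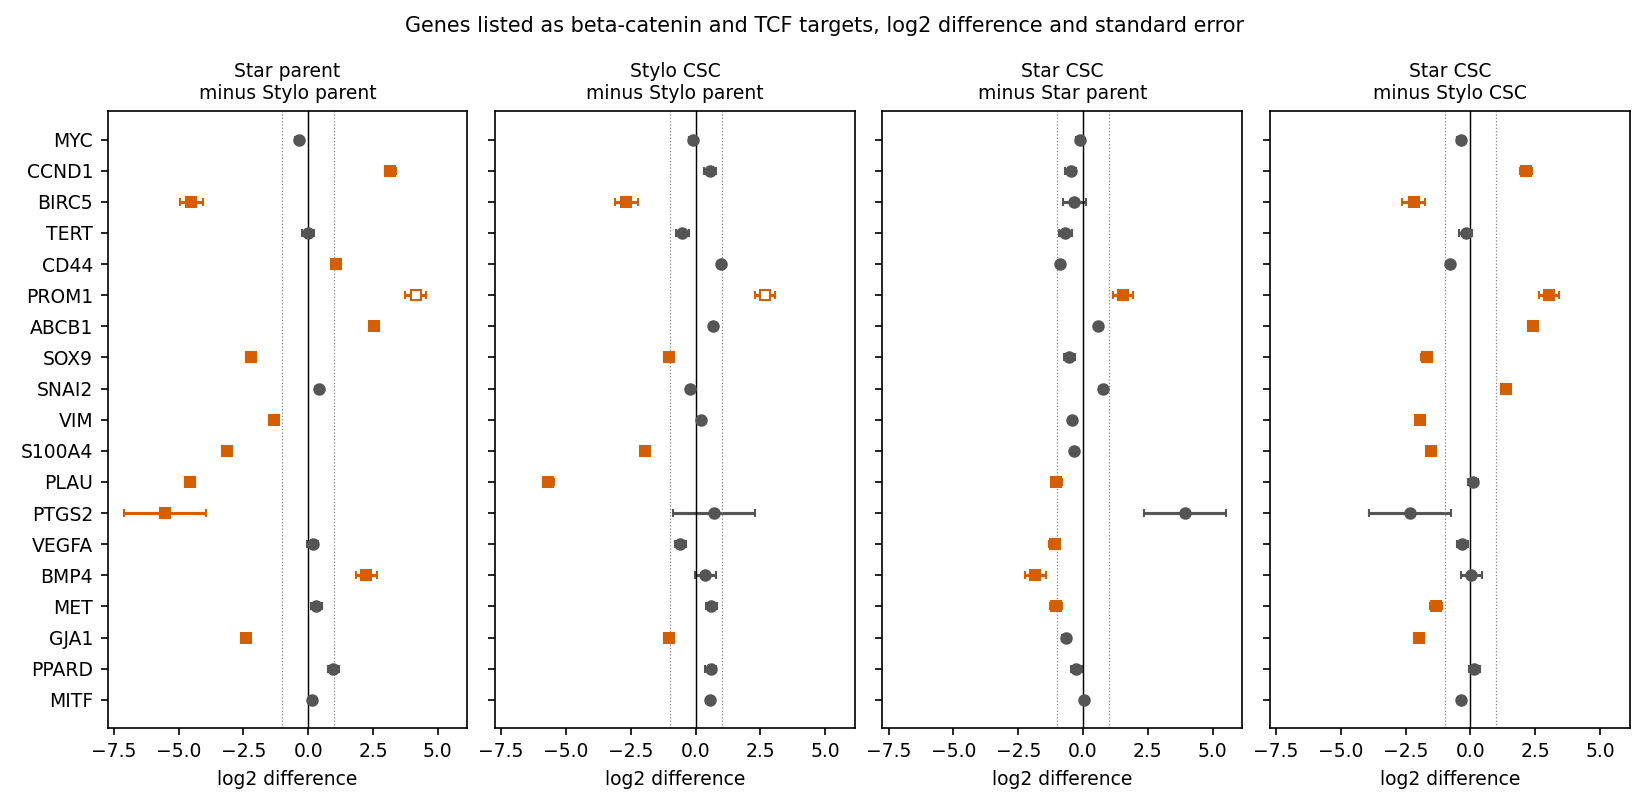
Log2 difference with its standard error (x axis) of 19 genes listed as beta-catenin and TCF targets (y axis; TCF4 is shown with the members) in 4 comparisons, 1 panel each. Orange squares are calls, grey circles are not called, open symbols have 1 group not above background on either array, and dotted lines mark 2-fold. MYC lies near 0 in all 4 panels while CCND1 and BIRC5 lie on opposite sides of it in the comparisons between the lines.

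PLAU, urokinase, went from 2118 and 1226 in Stylo parent to 379 and 248 in Star parent (-4.56 ± 0.21) and to 122 and 121 in Stylo CSC (-5.68 ± 0.21), both called under all 8 scalings. S100A4, a calcium-binding protein tied to metastasis, lay at -1.96 ± 0.11 in Stylo CSC against Stylo parent, a call kept under 3 of 8 scalings. Relative to the median probe S100A4 lay between -1.69 and 0.38, so no direction is given across scalings. PTGS2, the inducible cyclooxygenase, was lower in Star parent (-5.52 ± 1.58; limma adjusted p = 0.019), but its 2 Star parent signals were 211 and 4.39, and the value was -8.23 without the brighter and -2.81 without the dimmer of these arrays. The PTGS2 call was lost without either Stylo parent array (-5.34 and -5.70). Between the CSC, GJA1, connexin 43, was lower in Star (-2.00 ± 0.15; under all 8 scalings) and VIM, vimentin, was lower too (-1.95 ± 0.11; under 6). SNAI2, the transcriptional repressor Slug, was higher in Star CSC (1.39 ± 0.11; under all 8).

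With sorting in Star, BMP4, a ligand of another developmental pathway, fell by 1.84 on the log2 scale, from 708 and 691 to 476 and 162. VEGFA, an angiogenic factor, fell by 1.09 and MET, the hepatocyte growth factor receptor, by 1.05. These calls stood under 6, 5 and 2 of the 8 scalings. The BMP4 value was -2.51 without Star CSC replicate 1 and -1.17 without Star CSC replicate 2, and the call was lost without Star parent replicate 1 (-1.90) or replicate 2 (-1.77). The VEGFA call was lost without Star parent replicate 2 (-0.85) or Star CSC replicate 1 (-1.002), and that of MET without any 1 of the 4 Star arrays (-0.99 to -1.10).

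The named genes whose levels most resembled each member over the arrays were found among 975 others, by Pearson r, as a description of 4 groups that share slides and signal shape. For WNT5A these were ZFPM2 (r = 0.991), SLC3A2 (r = 0.990) and DBH (r = 0.987), over 8 arrays. Their r stayed at 0.974 or above after quantile normalization and at 0.984 or above without the Stylo parent arrays. After quantile normalization only ZFPM2 of these was still among the 3 most similar. For CTNNB1-a they were SLC1A3 (r = 0.991), ACTB (r = 0.978) and TIMP1 (r = 0.978), over 7 arrays, which fell to 0.494, 0.687 and 0.631 after quantile normalization. For TCF4-a they were NFKBIL1 (r = 0.980), ATP2B1 (r = 0.974) and B3GALT4 (r = 0.967), at 0.962 or above after quantile normalization. Without the Stylo parent arrays these became 0.942, 0.922 and 0.914. B3GALT4 was not above background on the Stylo parent arrays. With those arrays left out, none of the genes named here stayed among the 3 most similar to its member.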

How the data were processed

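RNA of 8 samples was hybridised to 1-colour canine Agilent arrays. The authors' deposited scanner files give each spot's processed signal as an intensity. The scanner software was Agilent Feature Extraction, version 11.5.1.1, per the submitters' processing notes. In the series matrix the authors deposited log2 values, which match log2 processed signal less the array's 75th percentile and a constant per probe (SD of the difference at most 5.6e-07 over 18341 probes, column medians -0.27 to 1.01); it was used as an alternative. Groups came from the sample titles.

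Control and outlier-marked spots were left out, log2 signals were averaged per probe and the array's 75th percentile was subtracted. Testing needed a probe to be well above background on the 2 arrays of some group. limma 3.58.1 in R 4.3.3 fitted the 4 group means on all 8 arrays (lmFit and eBayes; 4 residual degrees of freedom; Benjamini-Hochberg; two-sided). The number of arrays limits the precision. Alternatives covered scaling, background correction, filters, thresholds, variance model, the deposited matrix, a replicate block and leaving out each array.

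Where a group was not above background on either array, its own signal or, if higher, the dimmest signal that was above background on that array stood in for it, which gives the folds written as at least. Accessions were matched to symbols in a table from RefSeq (UU_Cfam_GSD_1.0; no coordinates used), which named 2353 of 43603 probes (5.40%). Where a gene had several tested probes, the one brightest on average stands for it. Named were all member probes, the tested genes of the pathway lists, the targets with the 3 largest calls each way in each comparison with a few others chosen after their values were seen (MYC, CD44, SNAI2 and the marker genes), and the 3 most similar genes per member. The members and lists were chosen with earlier results of these data known. Same-numbered arrays of different groups had correlated deviations of -0.07 to 0.07, so replicate numbers do not pair the samples. The fit was tested on simulated data with known changes.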

Additional observations from a re-analysis of the deposited data

Results flagged for a closer look

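The change with sorting differed between the lines for several genes, by limma's test of the difference itself (Star change minus Stylo change, log2; adjusted p under 0.05 and at least 2-fold). In the same contrast 52.1% of all tested probes were called, so such a difference is common on these arrays. Of the member probes these were CTNNB1-a (-1.21), lower under all 8 scalings, and TCF4-a (-1.15), lower under 7. The CTNNB1-a call was lost in 7 other alternatives described above, among them keeping the marked Star parent spot. TCF4-b was called too, but its fitted value (-1.73) is no measured size, since Stylo parent was not above background, and normexp turned it to 1.13.

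Among the adhesion genes the change was more negative in Star for JUP (-2.91), CDH2 (-1.77) and TJP1 (-1.47), under all 8 scalings. CDH1 (-3.51) and MUC1 (3.08) were called as well, under 7 and 6 scalings, but they were not above background in 1 and both Stylo groups, respectively, so these fitted values are no measured sizes. The MUC1 call was also lost when any of 4 arrays was left out (2.65 to 3.09).

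Of the pathway genes PRKCD (-2.02) was more negative in Star under 7 scalings. PPP2CA (1.80) was called under 5, and FZD6 (1.02) under 2, with a value relative to the median probe of -0.24 to 1.12, so FZD6 has no settled direction. Its call was lost without any of 4 arrays (0.93 to 0.96).

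Of the target genes PLAU (4.65), BMP4 (-2.21) and CD44 (-1.87) were called under all 8 scalings, and MET (-1.66) and CCND1 (-1.03) under 7. BIRC5 (2.32) was called under 5. S100A4 (1.62) was called under 3, and relative to the median probe it lay between -0.45 and 1.47, so it has no settled direction. Leaving out Star CSC replicate 1 or 2 gave 3.06 and 1.59 for BIRC5 and -2.88 and -1.53 for BMP4. The BIRC5 call was lost without either Stylo CSC array or Star parent replicate 2 (2.20 to 2.33), that of BMP4 without Star parent replicate 2 (-2.14), and that of CCND1 without any of 6 arrays (-0.70 to -1.07). CD44 was one of the markers used for sorting in both lines.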

How the results depend on the processing

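WNT5A kept its direction and call between the lines, for parents and for CSC, under all 24 alternatives, and CTNNB1-a did so between the CSC. Values below are log2 differences, and the cause of a change was not tested unless stated. For Star parent against Stylo parent (15168 probes called), CTNNB1-a became 0.70 with quantile normalization, 0.55 with cyclic loess, 0.23 with spike-in scaling, 1.43 with no scaling (an alternative chosen after seeing the data), 0.82 with normexp, and -1.65 both with the marked spot kept and in the deposited matrix, which keeps it. CTNNB1-b became 0.44, 0.55, 1.08, 2.08 and 1.31 under the first 5 of these, 0.32 with median scaling and 0.24 with the percentile of detected probes. CTNNB1-d became 0.57 with spike-in and 1.58 with no scaling. TCF4-a became 1.097 with median scaling, 1.02 with the detected percentile, 1.85 with spike-in, 2.86 with no scaling and -0.51 with normexp, and TCF4-b -1.59 with normexp. Without a fold limit CTNNB1-a (-0.82), CTNNB1-d (-0.59) and TCF4-a (0.69) were called. For Stylo CSC against Stylo parent (14484 called), WNT5A became 1.36 with spike-in, 1.28 with no scaling and 0.61 with normexp. CTNNB1-a was called with quantile (1.43), median (1.03), loess (1.46), spike-in (2.63), no scaling (2.55), normexp (2.12) and without a fold limit (0.60), as were CTNNB1-b (0.64), CTNNB1-d (0.39) and TCF4-b (0.96). Normexp gave -0.15 for TCF4-a and -1.74 for TCF4-b.

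For Star CSC against Star parent (2608 called), spike-in scaling gave -0.46 for WNT5A, 0.88 for CTNNB1-a, 0.87 for CTNNB1-d, 1.501 for TCF4-a and 0.61 for TCF4-b. No scaling gave 0.0032 for CTNNB1-d, normexp -0.0208 for TCF4-a, and CTNNB1-a was 0.22 with the marked spot kept and 0.225 in the matrix. Without a fold limit CTNNB1-d was also called here (-0.51) and in the difference of sorting effects (-0.90), and CTNNB1-b between the CSC (-0.46). For Star CSC against Stylo CSC (7897 called), CTNNB1-b, TCF4-a and TCF4-b were 0.0402, 0.04 and 0.0312 with spike-in and 0.26, 0.26 and 0.25 with no scaling. For the difference of sorting effects (13988 called), WNT5A was called with spike-in (-1.82), no scaling (-2.60) and normexp (-1.93), normexp gave 0.13 for TCF4-a and 1.13 for TCF4-b, and CTNNB1-a was -0.38 with the marked spot kept and -0.38 in the matrix.

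Calls over all probes moved beyond 1.5 times as follows. Star CSC against Star parent gave 18576 with spike-in, 4293 with no scaling, 1149 with normexp, 1354 with probes above background on all arrays and 7922 without a fold limit. Star CSC against Stylo CSC gave 4051 with normexp, 4581 with probes above background on all arrays and 15288 without a fold limit. Without a filter on dim probes, which tests more probes, the counts were 26734 and 28650 for the first 2 comparisons and 21988 for the difference of sorting effects. Of the calls, 43.5% were higher in Star parent than in Stylo parent (25.1% to 94.1% across the 8 scalings), 40.6% in Stylo CSC than in Stylo parent (25.7% to 97.7%), 33.1% in Star CSC than in Star parent (32.2% to 98.7%), 42.8% in Star CSC than in Stylo CSC (34.6% to 82.6%) and 54.0% for the difference of sorting effects (10.5% to 70.1%).

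Leaving out 1 array at a time, with the lone sample of a group assumed to vary like the others, gave -2.22 to -1.45 for WNT5A and -0.0781 to 0.33 for TCF4-a (Star CSC against Star parent), -0.18 to 0.0107 for CTNNB1-b (parents), and, for the difference of sorting effects, -1.50 to -0.92 for CTNNB1-a, -0.29 to 0.19 for CTNNB1-c and -1.35 to -0.95 for TCF4-a. With the replicate block, WNT5A was -1.84 in Star CSC against Star parent (limma adjusted p = 0.0362), and no member call changed. A slide block could not be fitted, since slide and line coincide. Signal over background limits TCF4-b.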
